A study of Mus musculus with 7 samples.

Results

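Regions of open chromatin that were called in all 3 beta cell libraries and in none of the alpha and delta cell libraries were examined in mouse pancreatic islets. Peaks of all 7 peak lists that share at least 1 bp were merged into 834695 regions, and 792 regions (0.0949%) met this rule. They were 4.01% of the 19767 regions called in exactly 3 libraries and 3.37% of the 23525 regions called in all 3 beta libraries. The regions were therefore selected on presence and absence of peaks in these same lists, and their restriction to beta libraries is a description and not a finding. They are called beta-only regions here.

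The libraries were ATAC-Seq libraries of 2 alpha, 3 beta, and 2 delta cell pools, sorted by FACS from the islets of healthy mice. Every pool came from mice that carried mIns1-H2b-mCherry and Rosa-LSL-YFP together with either Sst-Cre or Gcg-Cre. In these mice an Ins1 promoter drives a red nuclear reporter that marks beta cells, and the Cre of delta or alpha cells switches on YFP. Animals were pooled by sex, both sexes were present in every cell type, and the labels give a median of 20000 cells per sample. No treatment or age is given in the labels, and which of the Cre lines each beta pool came from is not given in the sources used here. In the deposited list names, beta 1 is called alpha and beta 2 and beta 3 are called delta, so every beta value below rests on the cell type that the labels state. These names also carry a lane tag, which beta 1 shares with both alpha libraries and beta 2 and beta 3 share with both delta libraries. Per the study's methods, the cell types were taken from the same animals, so that a beta pool may share animals with an alpha or delta pool, and the labels do not say which pools do. A sorted pool is a bulk sample, so fewer cells with an open region and less access per cell cannot be told apart.

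In ATAC-Seq, a transposase inserts adapters where DNA is not wrapped in nucleosomes, and the inserts are sequenced. Open promoters are shared widely among cell types, whereas enhancers, which lie in introns or between genes, differ more from one cell type to another. Beta cells make insulin and release it when glucose rises, and their identity is held by transcription factors such as PDX1, NKX6-1, MAFA, and NEUROD1, which bind short DNA motifs in enhancers and promoters.

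The sequences of 7 beta-only regions are shown for what they contain and for the genes they lie near. Each is a window of 200 bp around a summit, read from RefSeq GRCm38.p6 on the plus strand. The first lines are regions of rank 1, 2, 3, and 8 by the strength of their peaks, and the window of rank 8 holds an E-box and an AP-1 match next to each other. Among the 12 strongest regions, the windows of rank 4, 6, 7, and 12, which are not shown, hold no match to the motifs searched. The window in Mcm9 holds several E-boxes, and the last lines lie near genes of beta cell identity. Capitals mark exact matches, on either strand, to the letters of 10 motifs that are spelled out with their shares further on.
Region of rank 1, nearest gene 1700015G11Rik, chr7:53160377-53160576: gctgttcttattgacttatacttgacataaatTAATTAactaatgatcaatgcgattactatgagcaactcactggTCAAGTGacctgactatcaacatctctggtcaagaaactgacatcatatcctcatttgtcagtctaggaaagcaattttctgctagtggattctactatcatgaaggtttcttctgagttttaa
Region of rank 2, nearest gene Rps6ka5, chr12:100735329-100735528: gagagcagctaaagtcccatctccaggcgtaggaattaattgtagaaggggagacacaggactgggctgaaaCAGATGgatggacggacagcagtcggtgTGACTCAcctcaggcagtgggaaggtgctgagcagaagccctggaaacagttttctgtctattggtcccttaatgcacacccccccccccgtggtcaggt
Region of rank 3, nearest gene Pcdh19, chrX:133725348-133725547: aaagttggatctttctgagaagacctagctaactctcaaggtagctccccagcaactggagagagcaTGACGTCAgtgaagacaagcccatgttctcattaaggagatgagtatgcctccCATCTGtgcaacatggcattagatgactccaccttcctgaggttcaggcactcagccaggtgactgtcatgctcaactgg
Region of rank 8, nearest gene Gm10306, chr4:94065907-94066106: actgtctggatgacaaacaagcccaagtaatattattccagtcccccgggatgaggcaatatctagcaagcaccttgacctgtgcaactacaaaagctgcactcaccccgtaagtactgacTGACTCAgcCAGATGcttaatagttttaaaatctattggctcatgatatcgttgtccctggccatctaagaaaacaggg
Near a transcript start within Mcm9, chr10:53612326-53612525: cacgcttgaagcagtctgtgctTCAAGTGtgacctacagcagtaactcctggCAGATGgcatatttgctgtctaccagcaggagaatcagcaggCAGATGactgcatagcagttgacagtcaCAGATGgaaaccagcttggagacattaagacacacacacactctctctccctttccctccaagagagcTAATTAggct
Body of St18, chr1:6804665-6804864: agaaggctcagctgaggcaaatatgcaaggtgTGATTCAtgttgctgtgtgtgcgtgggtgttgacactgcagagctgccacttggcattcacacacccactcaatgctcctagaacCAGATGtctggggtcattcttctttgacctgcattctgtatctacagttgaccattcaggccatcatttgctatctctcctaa
Body of Ucn3, chr13:3943667-3943866: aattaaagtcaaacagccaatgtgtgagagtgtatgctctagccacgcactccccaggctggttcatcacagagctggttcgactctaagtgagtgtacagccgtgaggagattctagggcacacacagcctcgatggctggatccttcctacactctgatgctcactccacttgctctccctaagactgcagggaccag
The window in Ucn3 has no capitals, so none of the letters searched is in it.

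The lists that chose the regions differ in length. Beta 1 had 518503 distinct intervals, beta 2 had 91089, and beta 3 had 103935, while the alpha and delta libraries ranged from 75860 to 158066. A -log10 q of at least 2, the value of MACS2 adjusted for multiple testing, was reached by 5.0% of the peaks of beta 1 and by 29.8% to 54.9% of those of the other 6 libraries. Among 8 beta markers, 8, 5, and 8 had a peak within 1 kb of a start in beta 1, 2, and 3, against 5 and 7 in the alpha and 7 and 8 in the delta libraries. Ins2, an insulin gene, is annotated from 142678656 to 142743381 on chromosome 7 with several transcript starts. A peak lay within 1 kb of any of them in beta 1, beta 3, and delta 2 and in neither alpha library. These peaks need not mark the same start. The delta 2 peak was at chr7:142698818-142699017, whereas the region at chr7:142679663-142680038 was called in beta 1 alone. The other beta markers each had a peak in at least 1 library of every cell type. Of 7 alpha markers, 5, 3, and 6 had such a peak in the beta libraries and 7 in each alpha library, and the start of Gcg, the glucagon gene, had none in any beta library. All 4 delta markers, among them Sst, the somatostatin gene, had a peak in beta 1 and none of them in beta 2 or beta 3. Each delta library had a peak at all 4, and each alpha library at 3 of them. At a -log10 q of at least 2, 1 delta marker, Sst, remained called in beta 1, and Sst was called in neither delta library. Each delta and each alpha library had 3 delta markers at this q. In each beta library 2 of 7 alpha markers were called at it. Of 13 acinar markers, 8, 4, and 4 had a peak in the beta libraries, and 1, 2, and 1 at the stricter q. The counts were 5, 1, and 2 of 10 for immune, 4, 1, and 2 of 8 for endothelial, and 5, 1, and 2 of 7 for duct markers. In the alpha libraries the counts were 5 and 7 for acinar, 2 and 3 for immune, 3 and 2 for endothelial, and 3 and 4 for duct markers. In the delta libraries they were 4 and 5, 3 and 2, 3 and 2, and 4 and 5 in the same order. At the stricter q, acinar counts were 2 and 4 in the alpha and 3 and 2 in the delta libraries. The part of other cell types in the results was not tested.

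Few beta-only regions were strong peaks in all 3 beta libraries. The strongest peak of a region had a median -log10 p of 3.06 in beta 1, 4.42 in beta 2, and 3.91 in beta 3, where the medians of all peaks of these lists were 2.26, 4.42, and 3.91. The lowest values were 2.05, 2.04, and 2.04 and the highest 21.4, 18, and 21.5. The median fold enrichment over the local background was 2.54, 3.39, and 3.21. A -log10 q of at least 2 was reached by 166 of the 792 regions in beta 1 (21%, 95% interval 18.3 to 23.9), by 369 in beta 2 (46.6%, 43.1 to 50.1), and by 315 in beta 3 (39.8%, 36.4 to 43.2). It was reached in all 3 libraries by 66 regions (8.33%, 6.60 to 10.5), in 2 by 192, in 1 by 268, and in none by 266 (33.6%, 30.4 to 36.9). Intervals given with shares are 95% Wilson intervals throughout, they cover counting error alone, and regions close to each other may vary together. No difference between sets of regions was tested.

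**Figure D1:**
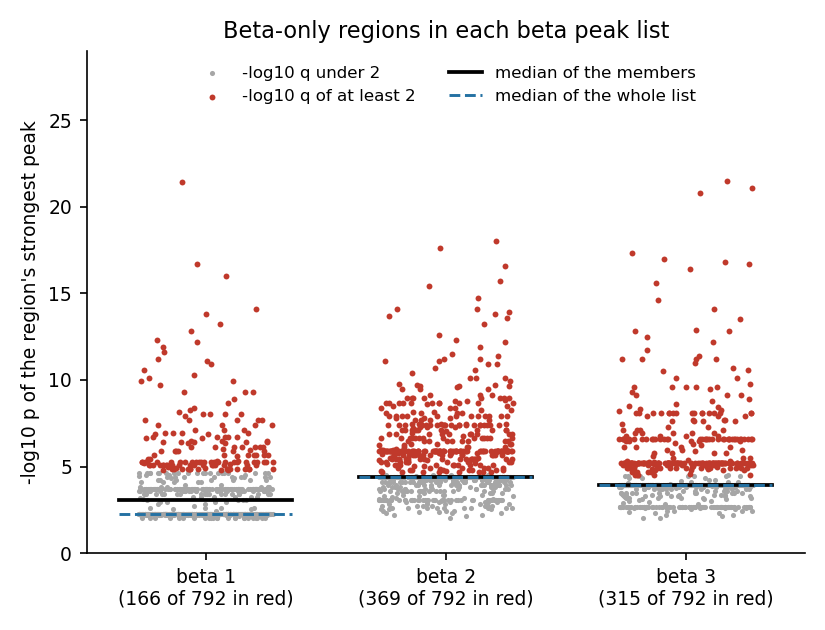
The -log10 p of the strongest peak of each of the 792 beta-only regions (vertical axis) is plotted for each beta library (horizontal axis, points spread sideways at random), with peaks of a -log10 q of at least 2 in red and the others in grey. Solid lines are the medians of these regions and dashed lines the medians of the whole lists, which coincide in beta 2 and beta 3.

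The order of beta-only regions by strength differed among the beta libraries. Across the 792 regions Spearman's rho of the -log10 p was 0.24 between beta 1 and beta 2, 0.27 between beta 1 and beta 3, and 0.22 between beta 2 and beta 3, and across the 17759 regions called in all 7 libraries it was 0.65, 0.73, and 0.68. The points are regions of the same libraries, and many weak peaks share the same value. The summits of the 3 beta peaks of a region lay within a median span of 103 bp, against 68 bp in regions of all 7 libraries and 89 bp in regions with 1 alpha or delta peak.

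At the edge of the rule, regions differed by a weak peak. A region of 200 bp near a start of Tyw1 (chr5:130258627-130258826) had a -log10 p of 4.11, 2.58, and 2.04 in beta 1, 2, and 3 and was included by its peak in beta 3. A region nearest to Uggt1 (chr1:36223302-36223636) had 2.26, 5.87, and 5.22 in these libraries and was left out for a peak of 2.04 in alpha 1. In all, 1020 regions were called in the 3 beta libraries and in 1 other, which was delta 1 in 467, delta 2 in 204, alpha 2 in 198, and alpha 1 in 151 of them, and the extra peak had a median -log10 p of 4.24. On the other side, 978 regions were called in beta 2 and beta 3 and nowhere else, 6223 in beta 1 and beta 3, and 6342 in beta 1 and beta 2. The nearest alpha or delta peak lay at a median of 2505 bp from a beta-only region, and 131 regions (16.5%) had one within 500 bp.

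Beta-only regions were ranked by the lowest of their 3 percentiles in the beta lists. Of the 12 strongest, 9 were distal-intergenic, a class that held 47% of all 792, 2 were intronic, and 1 was promoter-proximal. The first (chr7:53160176-53160646) had a -log10 p of 16, 14.1, and 16.7 in beta 1, 2, and 3. It lies 233105 bp from the nearest transcript start of any kind and 1144447 bp from that of a protein-coding gene, 1700015G11Rik. The second (chr12:100735162-100735742), 8178 bp upstream of Rps6ka5, which encodes a kinase that acts on chromatin, had 10.1, 10.9, and 15.6. The third (chrX:133725282-133725652), 36294 bp upstream of Pcdh19, a protocadherin gene of cell adhesion, had 8.03, 12.6, and 12.8. These 3 regions were thus strong in every beta library.

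The fourth region (chr9:15802618-15803022) had a -log10 p of 6.12, 10.1, and 14.6. Its nearest protein-coding start, at 71437 bp, is that of Mtnr1b, a melatonin receptor gene. The region nearest to Rhob (chr12:8450642-8451022), a small GTPase gene, had 21.4, 9.95, and 16.4. The region nearest to Mme (chr3:63073005-63073648), which encodes the peptidase neprilysin, had 4.62, 14.1, and 10.7, so that beta 1 was the weakest there and the strongest at Rhob. The region in an intron of Usp45 (chr4:21830757-21831209), a ubiquitin protease gene, with its nearest start in Pnisr, had 9.94, 8.77, and 16.8. The promoter-proximal region (chr16:44892422-44893016) lies 125 bp from a transcript start that does not belong to its nearest protein-coding gene, Cd200r2. This gene is of a family of immune receptors. The region had 10.3, 8.69, and 10.5, close to even in the 3 libraries. In the other 4, nearest to Gm10306, Csmd1, Abca13, and Olfr935, the lowest of the 3 values was between 4.62 and 7.13 and was that of beta 1. Nearest gene is a matter of position and does not name a target.

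**Figure D2:**
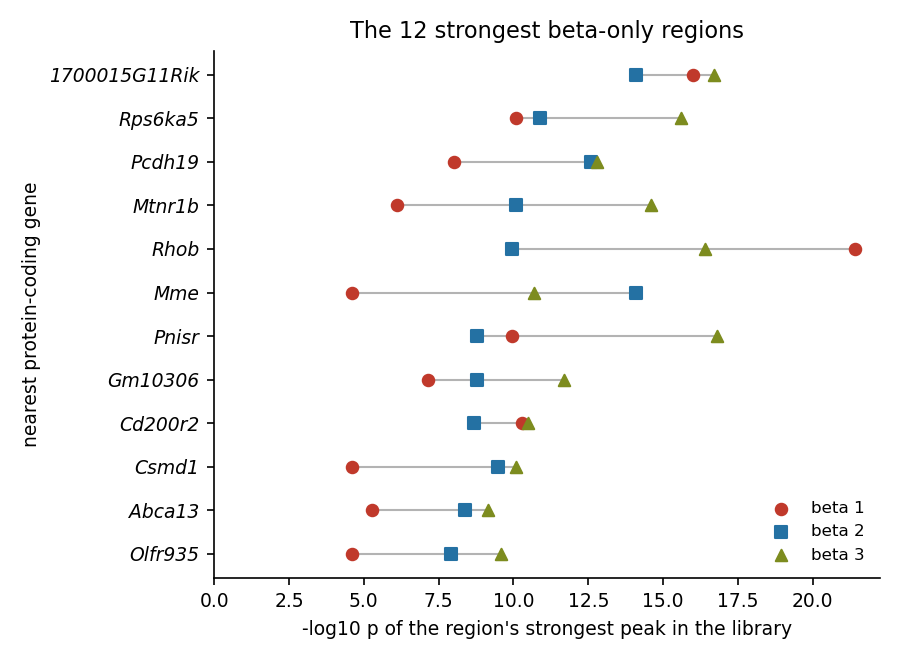
The -log10 p of the strongest peak (horizontal axis) is plotted for the 12 strongest beta-only regions, named by the nearest protein-coding gene (vertical axis), with a symbol for each beta library and a line from the lowest to the highest. The values run from 4.62 to 21.4, and the region nearest to Rhob has the widest spread.

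As a description of how calls recur among the lists, a beta library and an alpha or delta library were set aside in each of the 12 possible pairs. Regions were then chosen on the remaining 5 libraries, as called in both beta and in no alpha or delta library, and their calls in the libraries set aside were counted. The background was the regions called in any other 2 of the 5 libraries. Every background region thus had a peak in an alpha or delta library and none had a peak in both beta libraries kept. For the chosen regions the reverse held by rule. Beta 1, when set aside, had a peak in 47.1% to 51.8% of the chosen regions and in 38.5% to 42.4% of the background regions. Beta 2 had one in 12.4% to 14.9% against 8.25% to 9.47%, and beta 3 in 12.2% to 14.8% against 10.4% to 12.3%. The ratio of the 2 rates was 1.06 to 1.58 in the beta libraries set aside. In the alpha and delta libraries set aside it was 0.359 to 0.701, with 6.81% to 27.2% of the chosen regions called. The ratio was higher in the beta library in 12 of 12 pairs. This direction may follow in part from the make-up of the background, and how much of it does was not tested. The libraries set aside are also among the 7 lists that the rule used. The ratios therefore cannot decide whether beta-only regions are open in beta cells of other pools. The plain call rate was higher in it in 10 of 12, the exceptions being beta 2 and beta 3 beside delta 1, with 14.9% against 16.7% and 14.8% against 16.4%.

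Most regions chosen on 2 beta libraries thus had no peak in beta 2 or beta 3 when that library was set aside. When only peaks passing a -log10 q of 2 were used, the beta libraries set aside had a peak in 35.2% to 49.9% of the chosen regions and in 13% to 22% of the background, with ratios of 2.06 to 3.12. The ratios in the alpha and delta libraries were 0.289 to 0.738. In the 6 pairs that share a lane tag, the ratios with all peaks were 1.18 to 1.58 in the beta and 0.416 to 0.644 in the alpha or delta library, and in the 6 that do not, 1.06 to 1.46 and 0.359 to 0.701. The 12 pairs share libraries, so the spread over pairs is not that of independent replicates, and no test was made.

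**Figure D3:**
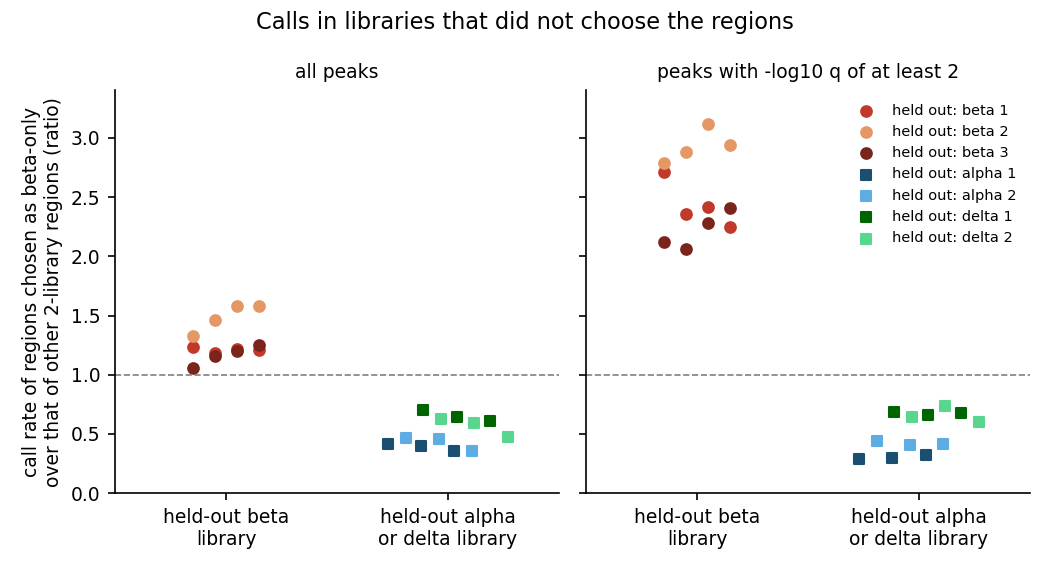
The call rate of regions chosen as beta-only on 5 libraries, divided by that of other regions called in 2 of these libraries (vertical axis), is plotted for the beta and for the alpha or delta library set aside in each of the 12 pairs, with a dashed line at equal rates. With all peaks (left) the beta libraries lie between 1.06 and 1.58 and the alpha and delta libraries between 0.359 and 0.701, and with stricter peaks (right) the groups lie farther apart.

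By annotation, beta-only regions were largely outside promoters. Of the 792, 372 were distal-intergenic (47%, 43.5 to 50.5), 246 intronic (31.1%, 27.9 to 34.4), and 145 promoter-proximal (18.3%, 15.8 to 21.2), within 3 kb of a transcript start on either side. Exons held 17, UTRs 11, and windows downstream of genes 1. The distal-intergenic share was 36.9% (35.3 to 38.6) in 3239 alpha-only regions, 37.7% (35.9 to 39.5) in 2750 delta-only regions, and 38.3% (37.6 to 38.9) in the 18975 other regions of exactly 3 libraries, called mixed here, and its interval in beta-only regions lay above all of these. The promoter-proximal share was 21.7% (20.3 to 23.1), 20.3% (18.8 to 21.8), and 22.2% (21.6 to 22.8) in the same sets. In the 17759 regions of all 7 libraries the order was turned around, with 61.4% promoter-proximal and 20% distal-intergenic. Alpha-only and delta-only regions are called in 2 libraries and beta-only regions in 3, which include the long list of beta 1, so the sets differ in how they were chosen.

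**Figure D4:**
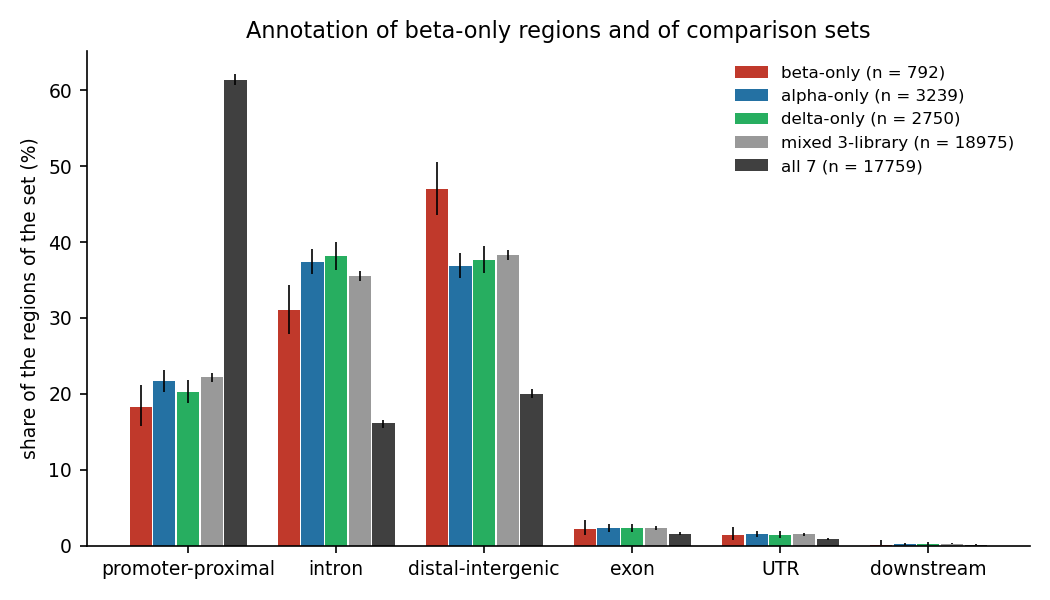
The share of regions in each annotation class (vertical axis, percent) is plotted for beta-only regions and 4 comparison sets, with bars for the share and lines for its 95% Wilson interval. Beta-only regions reach 47% in the distal-intergenic class, where the alpha-only, delta-only, and mixed sets lie between 36.9% and 38.3%.

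The median distance of a beta-only region from the nearest transcript start was 17580 bp, with quartiles of 5029 and 49320 bp. It was 12977 bp in alpha-only, 13024 bp in delta-only, and 12543 bp in mixed regions, and 0 bp in regions of all 7 libraries. More than 50 kb from any start lay 197 beta-only regions (24.9%, 22 to 28), against 16.1% (14.9 to 17.4) of alpha-only and 17.9% (16.5 to 19.4) of delta-only regions. The regions had a median width of 384 bp and were spread along the genome, since only 12 had another beta-only region within 10 kb.

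The DNA of beta-only regions was poor in CpG. The windows of 200 bp had a median GC share of 46% and a ratio of observed to expected CpG of 0.145, against 47.5% and 0.206 in alpha-only, 46.5% and 0.190 in delta-only, and 57.5% and 0.576 in regions of all 7 libraries. A GC share of at least 60% was found in 22 windows (2.78%, 1.84 to 4.17), in 7.87% (6.99 to 8.85) of alpha-only and 3.89% (3.23 to 4.68) of delta-only windows. Repeats, written in lower case in the reference, covered a mean of 17.8% of the windows. That mean was 23.1% in the 266 regions with no peak at a -log10 q of 2 and 10.1% in the 66 with such a peak in all 3 beta libraries.

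The windows were searched on both strands for the exact letters of 10 motifs. CAGATG, an E-box of the kind NEUROD1 binds, was found in 190 of 792 beta-only windows (24%, 21.1 to 27.1). It was in 21.4% (20 to 22.8) of alpha-only, 17.5% (16.1 to 18.9) of delta-only, 19.2% (18.7 to 19.8) of mixed windows, and 13.6% of those of all 7 libraries. TGANTCA, bound by AP-1 factors, was in 168 beta-only windows (21.2%, 18.5 to 24.2), against 15.9% (14.7 to 17.2), 19.0% (17.6 to 20.5), 16.2% (15.7 to 16.7), and 13.9%. For the E-box the interval of beta-only windows lay above those of delta-only and mixed windows and overlapped that of alpha-only windows, and for AP-1 it lay above those of alpha-only and mixed windows and overlapped that of delta-only windows.

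In the 66 beta-only regions with a -log10 q of at least 2 in all 3 beta libraries, the E-box letters were in 25 windows (37.9%, 27.1 to 49.9) and the AP-1 letters in 21 (31.8%, 21.8 to 43.8). When all lists were limited to such peaks before merging, a setting added after the data were seen, 228 regions were beta-only, of which 66 overlapped the 792. Their share was 34.2% (28.4 to 40.6) for the E-box, against 21.5% (20 to 23.1) in alpha-only, 18.3% (16.8 to 19.9) in delta-only, and 20% (19.2 to 20.9) in mixed regions chosen in the same way. For AP-1 it was 31.1% (25.5 to 37.4), against 19.5%, 22.1%, and 19.2%. TAATTA, the core of homeobox motifs such as those of PDX1 and NKX6-1, was in 11.4% (7.90 to 16.2) of these windows, in 4.50% (3.79 to 5.34) of alpha-only, and in 9.65% (8.53 to 10.9) of delta-only windows, but in 4 of the 66 (6.06%, 2.38 to 14.6). Without beta 1, the remaining 6 lists gave 1752 regions called in beta 2 and beta 3 and in no alpha or delta library. The E-box share in them was 21.6% (19.7 to 23.6) and the AP-1 share 17.2% (15.5 to 19.1). Other sets were not counted in this setting. In the main setting the E-box share of alpha-only windows was close to this, at 21.4%. The AP-1 share of delta-only windows was above it, at 19.0%.

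Among all beta-only windows TAATTA was in 56 (7.07%, 5.48 to 9.07), against 4.11% (3.48 to 4.85) of alpha-only and 7.75% (6.80 to 8.80) of delta-only windows, so that beta-only and delta-only windows overlapped and alpha-only windows lay lower. TGCTGAC, a MAF half-site, was in 44 (5.56%, 4.16 to 7.38), between 4% of delta-only and 7.93% of alpha-only windows. It can share letters with TGANTCA, so a site may count for both. GTTGCCA, an RFX half-site, was in 23 (2.90%, 1.94 to 4.32), close to 3.21% (2.66 to 3.88) of alpha-only windows and below 4.4% (4.11 to 4.70) of mixed and 6.51% (5.65 to 7.49) of delta-only windows, although the intervals of beta-only and mixed windows overlapped. TGTTTAC (forkhead) was in 5.30%, CACTTGA (NKX2-2 class) in 3.28%, CCANNAGGG (CTCF core) in 4.04%, and TGACGTCA (CRE) in 0.505%. GGGCGG, the GC box, was in 3.16% (2.15 to 4.62) of beta-only windows and in 39.4% of those of all 7 libraries, whose GC share is higher. A match is a stretch of letters and not a bound site.

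**Figure D5:**
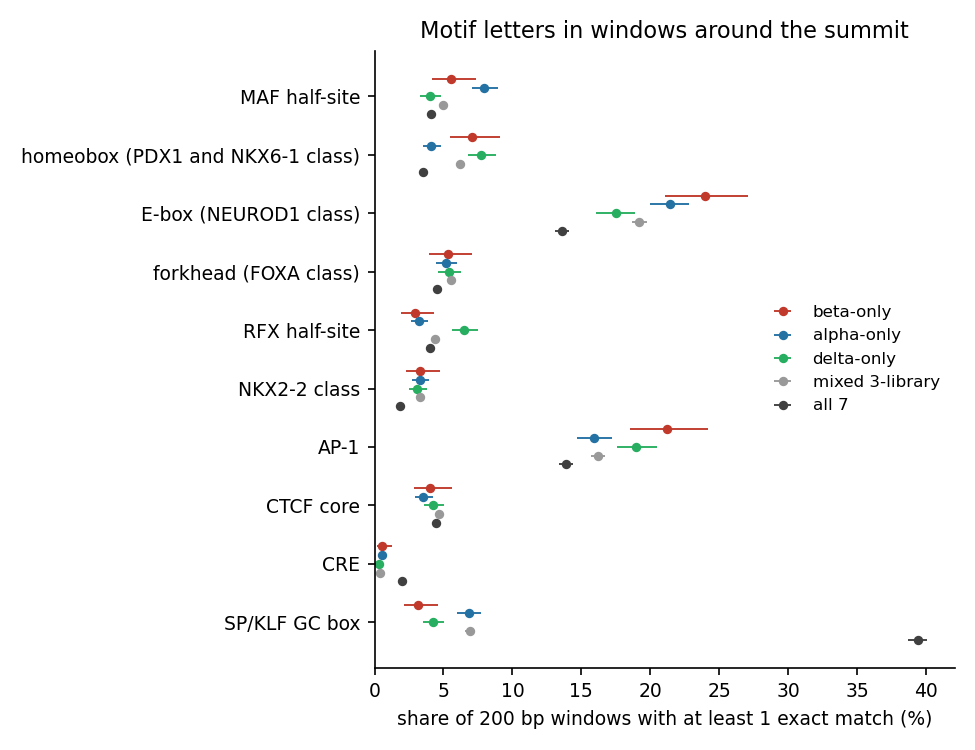
The share of windows of 200 bp that hold at least 1 exact match (horizontal axis, percent) is plotted for 10 motifs (vertical axis) in beta-only regions and 4 comparison sets, with lines for the 95% Wilson interval. The E-box and AP-1 shares of beta-only regions, 24% and 21.2%, are the highest of the sets plotted, and their intervals overlap those of alpha-only regions for the E-box and delta-only regions for AP-1.

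Genes of beta cell identity and function were listed to see whether beta-only regions lay near them. Of 54 such genes, 7 (13.0%, 6.42 to 24.4) had a beta-only region in the gene body or within 50 kb, where 928 of 21938 protein-coding genes (4.23%) had. Regions numbered 0.828 per Mb of this span near the 54 genes and 0.297 near all protein-coding genes, and the median gene length was 27 and 17.4 kb. Short lists of markers of other cells gave 1.05 per Mb for duct, 0.754 for delta, and 0.642 for acinar genes, each from 1 region. Lists of alpha, immune, and endothelial genes gave 0. Without beta 1, 11 of the 54 genes (20.4%) and 9.07% of all protein-coding genes had such a region. With peaks of a -log10 q of at least 2 in all lists, none of the 20 transcription factor genes (interval up to 16.1%) and none of the 34 function genes (up to 10.2%) had such a region, against 1.02% of all protein-coding genes. Of the 8 beta-only regions near the 7 genes, 1 reached this q in 2 beta libraries, 3 reached it in 1, and 4 in none.

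St18 (ENSMUSG00000033740.17, chromosome 1, 6487231 to 6860940, plus strand), a zinc finger transcription factor gene, had a region at 38975 bp upstream with a -log10 p of 3.70, 4.42, and 2.69 in beta 1, 2, and 3. A further region lay in its body, 1841 bp from a transcript start (chr1:6804633-6804885), with 3.07, 4.42, and 3.03. Meis2, a homeobox gene, had a region in its body (chr2:115897545-115897977) with 2.26, 5.87, and 5.22, of which the last 2 passed the q threshold.

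Ucn3 (ENSMUSG00000044988.7, chromosome 13, 3940688 to 3945349, minus strand), the gene of a peptide that mature mouse beta cells release with insulin, had a region in its body 1295 bp from its start (chr13:3943543-3944053). Its -log10 p was 2.16, 3.03, and 5.30, and the q threshold was passed in beta 3 alone. G6pc2, which encodes a glucose-6-phosphatase subunit that opposes glucokinase, had a region past the end of the gene, 8506 bp from its nearest transcript start (chr2:69228535-69228926) with 2.62, 5.65, and 3.47. The region within 50 kb of Chga, the gene of the granule protein chromogranin A, lies in an intron of Itpk1 and had 3.39, 4.42, and 2.69. Ptprn2, which encodes a membrane protein of secretory granules, had a region in an intron at 519546 bp from its nearest transcript start with 2.05, 3.07, and 3.47. In each of these regions the weakest value was in beta 1 or beta 3, and beta 2 or beta 3 held the strongest.

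The insulin genes Ins1 and Ins2 had no beta-only region within 3 kb. The region over the start of Ins1 (chr19:52263814-52264479) was called in all 3 beta libraries, with a -log10 p of 10.6, 4.42, and 9.33, and also in alpha 2 with 3.69, delta 1 with 5.88, and delta 2 with 3.11. An Ins1 promoter is part of the reporter that all pools carry, and its part in these calls was not tested. At Slc2a2, which encodes the glucose transporter GLUT2, 2 intronic regions were called in beta 2 and beta 3 and in no other library. One (chr3:28701922-28702208) had 3.28 and 9.11 and the other (chr3:28704756-28704995) had 2.29 and 3.11, and both lacked a peak in beta 1. At Slc35d2, a nucleotide sugar transporter gene, a beta-only region (chr13:64107570-64107958) lay in the gene body 406 bp upstream of an internal transcript start. Its -log10 p was 3.69, 11.5, and 4.85 in beta 1, 2, and 3, and a region over the first start (chr13:64129066-64129533) was called in all 7 libraries.

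Of all beta-only regions, 76 (9.60%, 7.74 to 11.8) lay within 1 kb of a start of any transcript and 44 within 1 kb of a start of the nearest protein-coding gene. Of the 44, 3 passed a -log10 q of 2 in all 3 beta libraries. At Gm16223 (chr5:42067486-42068064), a predicted gene, the -log10 p was 7.39, 8.69, and 6.79. Near a transcript start within Mcm9 (chr10:53612217-53612575), a helicase gene of DNA repair, it was 8.13, 9.49, and 5.22. At Cdh7 (chr1:109994927-109995206), a cadherin gene of cell adhesion, it was 4.95, 5.52, and 5.58. A further pair was chosen after their values were seen. Akt2, a kinase gene of insulin signalling, had a region over an annotated transcript start with 4.43, 7.90, and 7.67, and Penk, the gene of the opioid precursor proenkephalin, had one with 3.19, 5.65, and 8.32, with the q threshold passed in beta 2 and beta 3 at both.

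Beta-only regions did not gather at few genes. The 792 regions had 687 different nearest protein-coding genes, of which 597 were nearest to 1 region, 77 to 2, and 13 to 3 or more. Klhl29 and Abca13 were nearest to 4 each. The other 11 were Pcdh20, Rpia, Fndc3c1, Slc39a10, Cdc73, Trps1, Gbe1, Efna5, Adgrl3, Pcdh9, and Nrg3. All 3 regions of Nrg3, a neuregulin gene of 1104 kb, lay in its body, whereas the 3 of Pcdh20, a protocadherin gene of 6.65 kb, lay outside it. The region of Efna5, an ephrin ligand gene, in the gene's UTR (chr17:62607298-62607753) had a -log10 p of 5.87, 13.2, and 5.22 and passed the q threshold in all 3 beta libraries.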

How the data were processed

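ATAC-Seq peak lists of 7 mouse libraries (2 alpha, 3 beta, 2 delta) were analysed, grouped by their deposited labels. Per the labels, the authors used Trimmomatic, Bowtie2, Picard, and MACS2 on mm10 (GRCm38), and the deposited lists are separate for each library. Versions and the MACS2 threshold are not given in the sources used here, and the lowest -log10 p was 2.01 in every list. The deposited -log10 p and -log10 q values and the deposited fold enrichment (a ratio to the local background) come from MACS2, as does the deposited score, which was not used. The lists hold no read depth. The study's methods say that a beta library was removed for its low share of reads in peaks. By the totals of the study's supplement, every beta library left after this has fewer unique reads than either alpha library. These totals were not used, and the part of depth in the calls was not tested.

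Repeated intervals were counted once, and peaks sharing 1 bp were merged. Regions were annotated with GENCODE vM21 in the order promoter-proximal (3 kb), UTR, exon, intron, downstream (300 bp), and distal-intergenic. Windows of 200 bp were centred on the summit of highest percentile. Of 210 listed genes 209 were matched. The rule and the lists of genes and motifs were chosen with earlier results of these data known. Named are the 12 strongest regions, those within 50 kb of the beta genes, the genes nearest to most regions (10, extended to 13 for ties), starts within 1 kb with a -log10 q of at least 2 in all beta lists, and Slc2a2 and Slc35d2. Of the regions near the beta genes, 1 is not reported here. No test was made, since regions are not replicates. Steps were tested on simulated lists. Python 3.11.15, numpy 2.4.6, pandas 2.3.3, and matplotlib 3.10.9 were used.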

Additional observations from a re-analysis of the deposited data

How the results depend on the processing

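The number of beta-only regions depended on the peaks and libraries used more than their annotation shares and median GC share did. Motif shares moved too, the E-box from 24% to 34.2% and AP-1 from 21.2% to 31.1% with a -log10 q of at least 2 in all lists. With a -log10 q of at least 2 in all lists there were 228 regions, 14.5% promoter-proximal and 52.2% distal-intergenic, with a median GC share of 44.5%. With this limit on beta peaks alone there were 66, 56.1% distal-intergenic and 21.2% intronic. With 50000 peaks per list there were 393, of which 131 overlapped the 792, and 15% were promoter-proximal. With each library left out in turn, the number was 942 to 7131, the promoter-proximal share 14.8% to 19.1%, the distal-intergenic share 45% to 54.7%, the intronic share 27.7% to 33.2%, and the median GC share 44.5% to 47%. The number was 1752 without beta 1, 7011 without beta 2, 7131 without beta 3, and 1259 without delta 1, and fewer libraries then had to hold or lack a peak. With promoters 3 kb upstream only, 11.5% were promoter-proximal. With windows of 100 bp, the median GC share was 47%. The median held-out ratio of beta libraries, 1.22, was 2.41 for the stricter peaks and 1.8 for 50000 peaks in each list. Of the beta genes 4 had a region in the body alone, 0 with a -log10 q of at least 2 in all lists, and 11 without beta 1, the last 2 being settings added after the data were seen. Requiring no alpha or delta peak within 500 bp left 661 regions, and coverage of at least 0.5 of a region gave 637, with the shares inside the main intervals. No paired analysis was possible because the labels do not say which pools share animals and no result comes from a test. The lists hold no read counts, and closed chromatin and too few reads cannot be told apart where an alpha or delta peak is missing.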

Other observations

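Genes of other groups differ in length, and their shares are set beside the 4.23% of all protein-coding genes with a beta-only region within 50 kb. Of 32 genes of adhesion and axon guidance, many of which encode membrane proteins through which cells contact each other, 5 (15.6%, 6.86 to 31.8) had a region within 50 kb, namely Nrxn3, Nlgn1, Epha3, Efna5, and Lsamp. These genes had a median length of 435 kb, and regions numbered 0.225 per Mb near them against 0.297 near all protein-coding genes. With a -log10 q of at least 2 in all lists, 6 of the 32 (18.8%, 8.89 to 35.3) had a region, against 1.02% of all protein-coding genes, and regions numbered 0.359 per Mb near them against 0.0741 near all. These 6 were counted over 228 regions, most of which are not among the 792. Of 31 ion channel genes, with a median length of 159 kb, none had one (interval up to 11%), and 1 (3.23%, 0.572 to 16.2) had one at the stricter q. Of 22 exocytosis genes 1 had one (4.55%, 0.807 to 21.8), close to the share of all protein-coding genes.

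None of the 11 alpha markers matched had a beta-only region within 50 kb (interval up to 25.9%). Of 9 delta markers 1 had (11.1%, 1.99 to 43.5), Lepr, the leptin receptor gene. Of 13 acinar genes 1 had a region, Nr5a2 (7.69%, 1.37 to 33.3), and of 7 duct genes 1 had, Cftr (14.3%, 2.57 to 51.3). Of 10 immune, 8 endothelial, and 12 ubiquitously used genes none had. Among 1135 olfactory receptor genes, which are silent in most tissues, 41 (3.61%, 2.67 to 4.86) had one, near the 4.23% of all protein-coding genes.

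Per 1000 regions called in at least 2 libraries, beta-only regions numbered from 1.62 on chromosome 19 to 8.23 on chromosome 14. Chromosome X held 35 (4.42%, 3.19 to 6.08), against 2.72% (2.21 to 3.34) of alpha-only, 3.20% (2.60 to 3.93) of delta-only, and 3.88% (3.62 to 4.17) of mixed regions, the last inside the beta-only interval. Its 6.43 per 1000 regions lay within the range of the autosomes. The pools differ in sex, and its part in this share was not tested.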
